A study of Mus musculus with 2 samples.

Results

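Replication-dependent histone genes supply the histones that package newly copied DNA. They lie in clusters, mostly lack introns, and their main transcripts end in a stem-loop bound by the protein Slbp in place of a polyA tail. H2A, H2B, H3 and H4 form the core of the nucleosome, and H1 is the linker histone that binds the DNA between nucleosomes. Most genes of a core type are copies that encode identical or nearly identical proteins, apart from variants such as those known from the testis, whereas each H1 gene encodes a distinct subtype. N4-acetylcytidine (ac4C) is an acetyl group on cytidine in RNA, written by the acetyltransferase Nat10.

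The members were the protein-coding genes of a RefSeq gene table of GRCm38.p6 whose symbols follow the newer names of these genes (H1f0 to H1f6, and symbols that begin with H2ac, H2bc, H3c or H4c), since 0 symbols of the table began with an older Hist name. The rule took 64 of 21900 protein-coding genes, namely 7 H1, 17 H2A, 16 H2B, 12 H3 and 12 H4 genes. Of these, 53 lay in the Hist1 cluster on chromosome 13 and 10 in the Hist2 cluster on chromosome 3. The remaining gene, H1f0 on chromosome 15, matches the symbol rule but encodes a linker histone made outside DNA replication, and it is kept apart below where clusters are compared.

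The study mapped ac4C by acRIP-seq in whole uterus taken from wild-type mice at gestational day 4. In this assay fragments that carry the mark are pulled down with an antibody. The libraries were 1 ac4C immunoprecipitation and 1 input control, both labelled as polyA RNA, and neither pooling of animals nor their age was given in the sources used here. The measurement available was the authors' list of 21192 peaks for the immunoprecipitation. With 1 library a group, no value below has a replicate check and no p-values were calculated between conditions or genes. Of the uterine cell type markers, 6 of 6 stromal, 5 of 6 epithelial, 4 of 4 smooth muscle and 3 of 3 endothelial genes held a peak, and the epithelial gene Epcam held none. Among all protein-coding genes the share was 30.7%, with neither transcript abundance nor gene span matched.

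A gene was counted as holding a peak when the summit of the peak lay in its span. In all, 58 of the 64 histone genes held a peak (90.6%, 95% Wilson interval 81.0 to 95.6%), against 30.7% of all protein-coding genes counted in the same way. Each of the 58 held exactly 1 peak, whereas 41.5% of all 6717 protein-coding genes with a peak held a single one. Short genes in general did so too, 22 of 22 of those up to 1000 bp outside the 64. The peaks filled most of these short genes, with a median width of 356.5 bp and a median of 70.6% of the span, and 50 of the 58 lay wholly inside the span. In bulk tissue, a missing peak can stand for a transcript without the mark, for fewer cells that make it or for less of it per cell. These cannot be told apart for any missing peak here.

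Short genes rarely held a peak elsewhere. Of the 58 histone genes with a span up to 1000 bp, 53 held a peak (91.4%, 95% interval 81.4 to 96.3%). Among the 1527 protein-coding genes of that span outside the 64 it was 22 (1.44%), so that the 64 genes supplied 53 of the 75 short genes with a peak. The 22 include H2aw, a histone gene that the symbol rule leaves out. Transcript abundance was not matched in this comparison. The polyA selection named in the labels did not keep histone RNA out of the list. Whether the fragments came from polyadenylated histone transcripts or from RNA carried through the selection was not tested.

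The 6 histone genes with a longer span were H1f0 and 5 H2B genes. Longer transcripts with a polyA tail are known for some histone genes. A peak was found in 5 of the 6 (83.3%, 95% interval 43.6 to 97.0%), and in 32.7% of all protein-coding genes with a span above 1000 bp. Their median fold enrichment was 5.58, and that of the 53 short histone genes with a peak was 5.48. H2bc22 spans 14079 bp and its summit lay 235 bp from the listed start. In H2bc23, which spans 3788 bp, that distance was 243 bp, and in H2bc6, which spans 37455 bp and has 2 listed starts, it was 230 bp from the nearer start. The single peak of these long H2B genes thus lay at the distance seen in short H2B genes (median 239 bp over all 14 H2B genes with a peak and a listed start), and 0 further peaks were found in the rest of their spans. H2bc4 (8282 bp) held 1 peak of 6.25-fold, and H2bc21 (2667 bp) held none.

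The fold enrichment of a peak is the fragments at its summit over the background, each with a pseudocount of 1, as computed by the authors' peak caller. The 58 histone genes had a median of 5.53 (interquartile range 4.28 to 7.64), below the 6.61 of all protein-coding genes with a peak at their highest peak. The 6.61 takes the highest of several peaks in most of those genes, whereas each histone gene had 1 peak. Over all 21192 peaks the median was 5.58. Over the 22 short genes outside the 64, each with 1 peak, it was 5.79. The 95% intervals of the histone genes, from the counting error of the immunoprecipitation alone, lay wholly above 6.61 in 12 genes and wholly below it in 28. The histone peaks were deep. The median was 66 fragments over a background of 10.9, against 21 fragments over 2.10 in all genes with a peak, and 54 of the 58 had a background above the upper quartile of those genes (3.94). At a like background the order of the medians was the reverse. The 28 histone genes with a background from 6.35 to 16.7 fragments had a median of 5.36-fold (interquartile range 4.27 to 7.03), and the 683 other genes in that range had 4.62-fold (3.50 to 6.19).

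**Figure D1:**
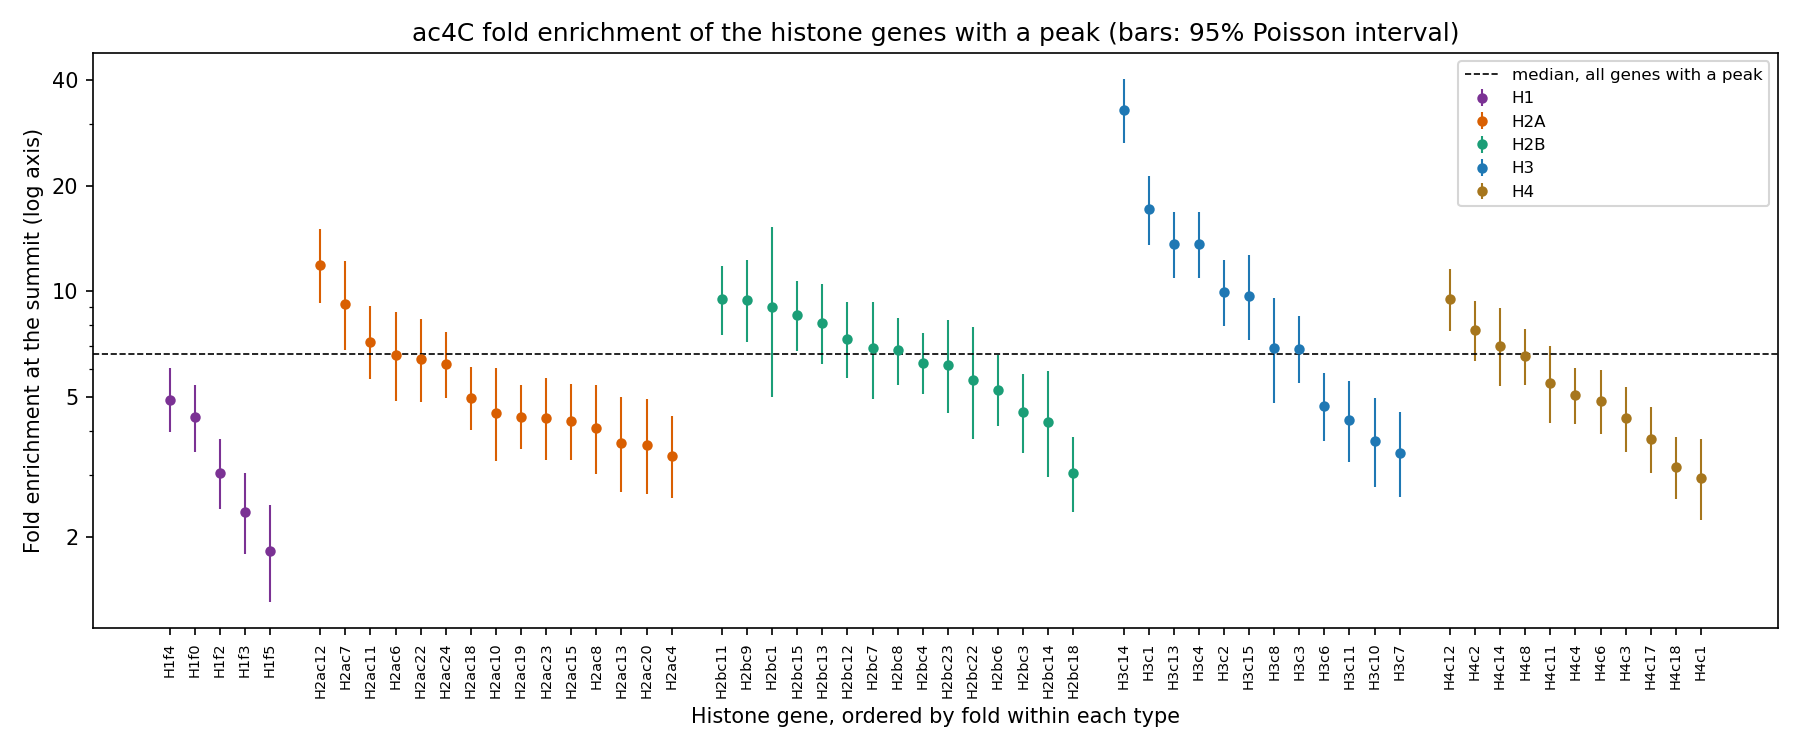
Fold enrichment at the summit (log axis) of each of the 58 histone genes with a peak, grouped by type; bars are 95% Poisson intervals and the dashed line is the median of all protein-coding genes with a peak, each at its highest peak, 6.61. All 5 H1 genes lie below the line, and H3 genes run from 3.47 to 32.7.

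By type, H3 genes had the highest median fold enrichment at 8.28-fold (range 3.47 to 32.7), followed by H2B at 6.78 (3.03 to 9.48), H4 at 5.06 (2.94 to 9.52), H2A at 4.51 (3.40 to 11.9) and H1 at 3.03 (1.82 to 4.92). The ranges of all 5 types overlapped with one another, and genes of 1 type are not replicates, so neighbours in this order were not told apart. The spread between types was greater in the background than in the pulled-down fragments. Median background ran from 6.35 fragments in H3 and 7.44 in H2B to 10.5 in H2A, 17.5 in H4 and 21.0 in H1. Median fragments at the summit were 77 in H3, 59 in H2B, 55 in H2A, 89 in H4 and 75 in H1. The medians of H3 and H1 thus differed by only 2 fragments, at backgrounds more than 3 times apart.

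**Figure D2:**
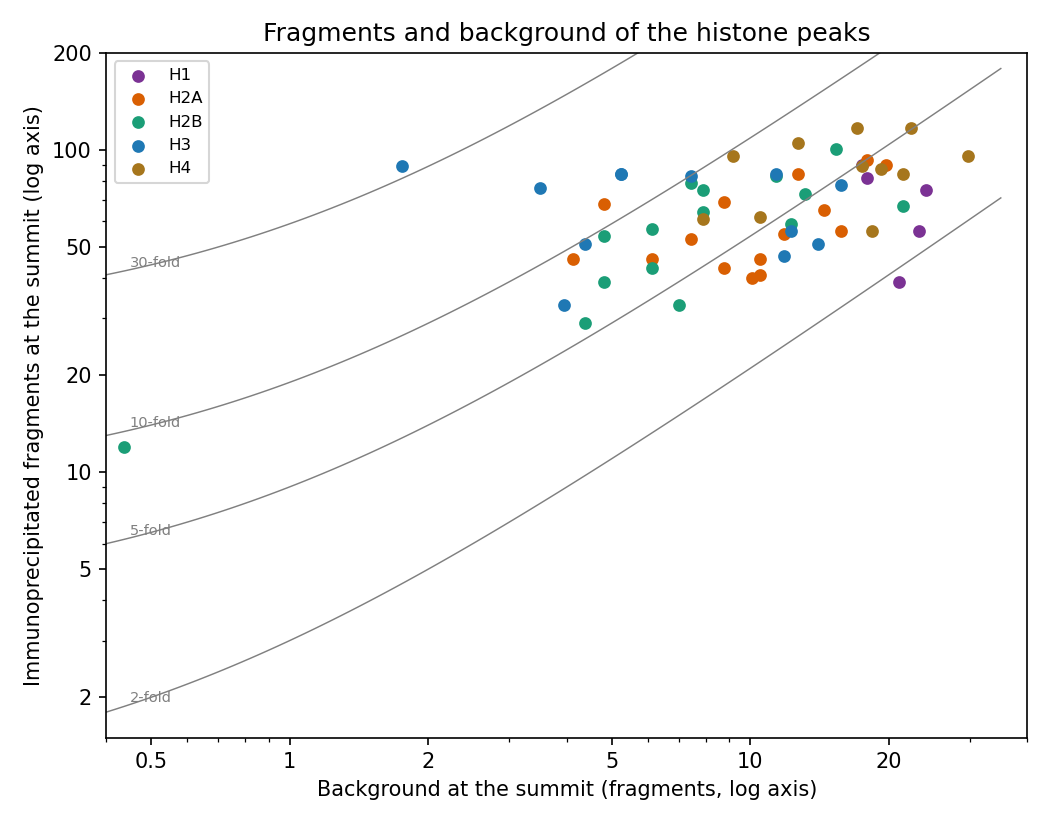
Immunoprecipitated fragments against background at the summit of each histone peak (both log axes), coloured by type, with grey lines of equal fold enrichment. H1 genes lie at backgrounds of 17.5 to 24.1 fragments, and H3c14 lies at 1.75 with 89 fragments.

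Core histone H3 was the only type in which every gene held a peak, 12 of 12 (95% interval 75.8 to 100%). H3c14 of the Hist2 cluster stood highest, at 32.7-fold (26.3 to 40.2; chromosome 3, 96246857 to 96247354), with 89 fragments over 1.75. It ranked 48 in the whole list, the only histone gene among the 100 highest folds. H3c1 followed at 17.1-fold (13.5 to 21.4; chromosome 13, 23761982 to 23762369), on 76 fragments over 3.50. These intervals do not overlap, and both genes had fewer background fragments than most other histone genes. H3c14 shares an older symbol, Hist2h3ca1, with H3c15. Whether fragments of either gene were counted at the other was not tested.

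H3c4 on chromosome 13 (23575782 to 23576168) and H3c13 on chromosome 3 (96268628 to 96269092) gave the same values, each 13.6-fold (10.9 to 16.8) on 84 fragments over 5.25. Among the 589 peaks of the list with at least 84 fragments, 69 (11.7%) shared fold and p-value with another peak of that set. The coding sequences of H3 genes are alike, and whether fragments of 1 copy were counted at both places was not tested. Compared position by position from the listed starts, 65 of the 250 bases before the start were equal in the pair, and 11 of the first 50 transcribed bases. The sequences were not aligned, and copies whose starts are listed at different points would also give low numbers. This comparison therefore cannot show whether the promoters are copies of each other. The values of both genes, and of other close copies above and below, are uncertain as measurements of single genes. The 120 bases before the listed start of the highest H3 gene and of this pair are shown for comparison, from RefSeq (GRCm38.p6, + strand, 5′ to 3′), with motifs on either strand in capitals. The motifs searched were the CCAAT box, spelled CCAAT, the TATA motif, spelled TATAAA, and the octamer known from H2B promoters, spelled ATTTGCAT.
H3c14, chr3:96246565-96246684: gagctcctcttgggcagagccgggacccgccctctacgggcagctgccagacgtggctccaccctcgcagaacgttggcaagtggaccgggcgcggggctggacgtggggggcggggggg
H3c4, chr13:23575643-23575762: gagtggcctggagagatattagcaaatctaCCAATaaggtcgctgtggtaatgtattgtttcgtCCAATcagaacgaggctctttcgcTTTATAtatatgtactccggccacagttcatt
H3c13, chr3:96268534-96268653: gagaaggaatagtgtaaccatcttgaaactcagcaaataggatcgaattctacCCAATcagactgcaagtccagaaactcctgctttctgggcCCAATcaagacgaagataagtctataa
The H3c14 window holds none of these motifs, whereas H3c4 and H3c13 hold the CCAAT box 2 times each, and H3c4 also the TATA motif. These windows lie outside the peaks' summits, and a match is a description only.

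Of the other H3 genes, H3c2 stood at 9.95-fold and H3c15 at 9.67. H3c8 stood at 6.88 on only 33 fragments, beside H3c3 at 6.87 on 84. Lower levels were those of H3c6 at 4.71, H3c11 at 4.30, H3c10 at 3.74 and H3c7 at 3.47, each with an interval wholly below 6.61. The 12 H3 genes thus fell into 6 with an interval wholly above that median, 4 wholly below and 2 across it.

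H2A and H2B form a dimer in the nucleosome. Of 17 H2A genes, 15 held a peak (88.2%, 95% interval 65.7 to 96.7%), and of 16 H2B genes, 15 (93.8%, 71.7 to 98.9%). H2ac12 was the highest H2A gene at 11.9-fold (9.25 to 15.0) on 68 fragments over 4.81. H2ac7 stood at 9.19, H2ac11 at 7.18, H2ac6 at 6.59, H2ac22 at 6.40 and H2ac24 at 6.21. The intervals of H2ac12 and H2ac7 lay wholly above 6.61. The 9 remaining H2A genes had intervals wholly below 6.61. They were H2ac18 at 4.96, H2ac10 at 4.51, H2ac19 at 4.40, H2ac23 at 4.37, H2ac15 at 4.27, H2ac8 at 4.09, H2ac13 at 3.70, H2ac20 at 3.65 and H2ac4 at 3.40.

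Among H2B genes, H2bc11 stood at 9.48-fold (7.53 to 11.8), H2bc9 at 9.46 (7.15 to 12.3) and H2bc15 at 8.56 (6.76 to 10.7), with intervals wholly above 6.61. H2bc1, whose product is known from the testis, stood at 9.04 (5.01 to 15.3) on only 12 fragments over 0.438, the lowest depth of any histone gene here, and its summit also lay in the long non-coding RNA gene Gm33516. The list gives no strand, so the peak cannot be assigned to either gene. Its neighbour H2ac1, also known from the testis, held no peak and lay 541 bp from that of H2bc1. The middle of the type held H2bc13 at 8.14, H2bc12 at 7.32, H2bc7 at 6.88, H2bc8 at 6.78, H2bc4 at 6.25, H2bc23 at 6.17 and H2bc22 at 5.58. H2bc6 at 5.24, H2bc3 at 4.53, H2bc14 at 4.25 and H2bc18 at 3.03 had intervals wholly below 6.61.

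Many H2A and H2B genes lie head to head and are transcribed away from a shared stretch of promoter. With the starts listed by RefSeq, 9 such pairs were found, separated by 163 to 280 bp (median 179), and in 8 of them both genes held a peak. H2B was the higher in 5 pairs and H2A in 3, and the ratio of H2B to H2A ran from 0.617 in H2ac12 and H2bc12 to 2.196 in H2ac13 and H2bc13. The intervals were separate in 3 pairs, all with H2B higher. These were H2ac13 (3.70, 2.67 to 5.01) with H2bc13 (8.14, 6.20 to 10.5), H2ac15 (4.27, 3.31 to 5.43) with H2bc15 (8.56, 6.76 to 10.7), and H2ac8 (4.09, 3.01 to 5.42) with H2bc8 (6.78, 5.42 to 8.39). The intervals of H2ac8 and H2bc8 only just missed each other, with limits of 5.4199 and 5.4204. Those of H2ac12 (11.9, 9.25 to 15.0) and H2bc12 (7.32, 5.66 to 9.32), with H2A higher, only just overlapped. When the background was also given a counting error, with 1 step of the background (0.438 fragments) taken as 1 input fragment, the intervals were separate in 0 of the 8 pairs.

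**Figure D3:**
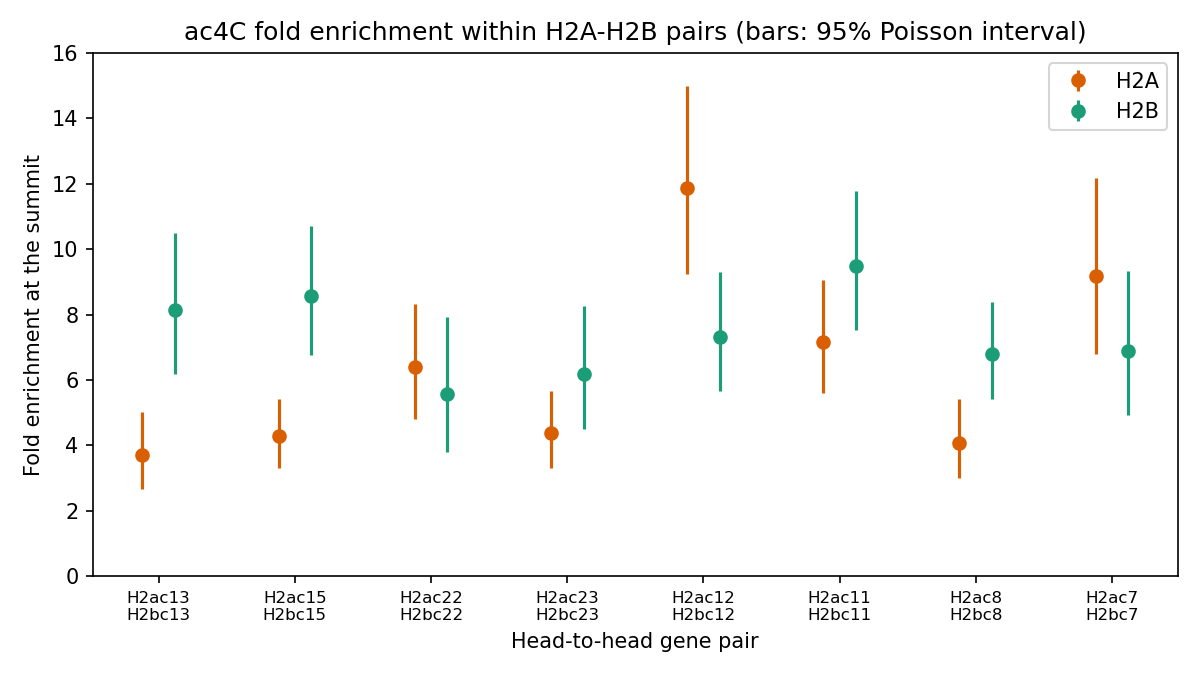
Fold enrichment at the summit of the H2A and H2B gene of the 8 head-to-head pairs in which both held a peak, with 95% Poisson intervals of the immunoprecipitated fragments. H2B is higher in 5 pairs and H2A in 3.

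The stretch between the genes of those 3 pairs is shown, as the 2 genes of a pair share it and yet differed in fold enrichment under the first interval. Sequences are from RefSeq (GRCm38.p6), 5′ to 3′ in the direction of the H2B gene (strand in brackets), with the same motifs in capitals.
H2ac13 and H2bc13, chr13:21716184-21716411 (-): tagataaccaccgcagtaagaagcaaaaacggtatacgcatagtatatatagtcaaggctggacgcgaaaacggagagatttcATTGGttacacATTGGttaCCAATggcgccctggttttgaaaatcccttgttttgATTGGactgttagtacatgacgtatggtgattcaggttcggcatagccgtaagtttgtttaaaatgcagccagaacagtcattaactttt
H2ac15 and H2bc15, chr13:21753913-21754075 (+): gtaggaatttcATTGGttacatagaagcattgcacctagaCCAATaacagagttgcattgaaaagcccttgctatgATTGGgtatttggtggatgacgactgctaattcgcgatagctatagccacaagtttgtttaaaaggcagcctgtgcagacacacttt
H2ac8 and H2bc8, chr13:23571221-23571399 (+): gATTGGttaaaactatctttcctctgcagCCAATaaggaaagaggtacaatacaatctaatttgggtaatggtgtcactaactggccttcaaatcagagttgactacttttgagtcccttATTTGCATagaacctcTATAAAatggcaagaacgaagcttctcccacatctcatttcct
The CCAAT box occurs 4, 3 and 2 times in these stretches, and the stretch of H2ac8 and H2bc8 also holds the octamer and the TATA motif 1 time each. Promoter windows were listed for 59 of the 64 histone genes. In the 250 bases before the start, the CCAAT box on either strand was found in 17 of 17 H2A, 14 of 14 H2B, 8 of 10 H3, 6 of 7 H1 and 3 of 11 H4 genes, against 34.5% of 27025 genes in the promoter table. The octamer was found in 6 of 17 H2A and 6 of 14 H2B genes and in 0 of the other 28, against 1.61% of all genes. The TATA motif was found in 28 of 59 (47.5%), against 12.97%. Since head-to-head genes share these bases, the H2A and H2B counts are not separate observations.

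Core histone H4 held a peak in 11 of 12 genes (91.7%, 95% interval 64.6 to 98.5%), and its peaks had the highest median depth and the lowest median width (244 bp) of the 5 types. H4c12 stood at 9.52-fold (7.73 to 11.6) on 96 fragments over 9.19, the only H4 gene with an interval wholly above 6.61. H4c2 followed at 7.74, H4c14 at 6.98, H4c8 at 6.53 and H4c11 at 5.48. H4c8 and H4c4 each had 117 fragments at the summit, the most of any histone gene, but backgrounds of 17.1 and 22.3, so that H4c4 stood at 5.06. H4c6 stood at 4.86, H4c3 at 4.34, H4c17 at 3.79, H4c18 at 3.15 and H4c1 at 2.94. H4c18 had the highest background of all histone genes, at 29.8 fragments.

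H4c9 was the H4 gene with no peak, and no peak lay within 500 bp of it. Its first 50 transcribed bases equal those of H4c18 at 47 positions, against a median of 26% equal positions between H4 genes. These bases were compared from the listed starts with no alignment, so a low share does not show that other H4 genes are unlike. Reads that fit both H4c9 and H4c18 were not traced.

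Linker histone genes had the lowest median fold enrichment and the widest peaks by median. Of 7 H1 genes, 5 held a peak (71.4%, 95% interval 35.9 to 91.8%), and all 5 intervals lay wholly below 6.61. H1f4 stood at 4.92-fold (3.96 to 6.03) on 90 fragments, H1f0 at 4.38 (3.49 to 5.42) on 82, H1f2 at 3.03 (2.39 to 3.79) on 75 and H1f3 at 2.36 (1.79 to 3.05) on 56. H1f5 stood at 1.82 (1.31 to 2.47) on 39 fragments over 21.0 and ranked 21180 of the 21192 peaks. The median width of the H1 peaks was 635 bp. Relative to the span it was 73.3%, near the 70.6% of all 58 histone genes with a peak. H1f10, a linker histone that the symbol rule leaves out, stood higher than all 5, at 18.5-fold (13.9 to 24.3). H1f1 and H1f6, the latter known from the testis, held no peak, and none lay within 500 bp of them.

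The distance of the summit from the transcript start varied by type. Starts were listed for 54 of the 58 genes with a peak. In H4 the median was 195 bp from the start (range 164 to 290), and 6 of 10 genes lay between 160 and 200 bp. In H2B it was 239 bp (205 to 337), with 11 of 14 genes between 200 and 260 bp. H2A fell into 6 genes between 220 and 260 bp and 8 between 300 and 340 bp, with H2ac7 at 184 bp (median 308 bp over 15 genes). H3 varied most among the core types, from 141 bp in H3c2 to 479 bp in H3c15 (median 249.5 bp), with 7 of 10 genes between 190 and 290 bp. The 4 H1 genes of the Hist1 cluster lay between 450 and 520 bp, and H1f0 at 882 bp. The windows that give these counts were chosen after the positions were seen. Relative to the span, the median over all 54 genes was 52.1%, near the middle of the gene. By type it was 59.2% in H1, 54.7% in H2A, 52.1% in H2B, 47.6% in H4 and 44.5% in H3. The distances in bp were not adjusted for gene span. Coding regions were not located, as exon positions were not used here.

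**Figure D4:**
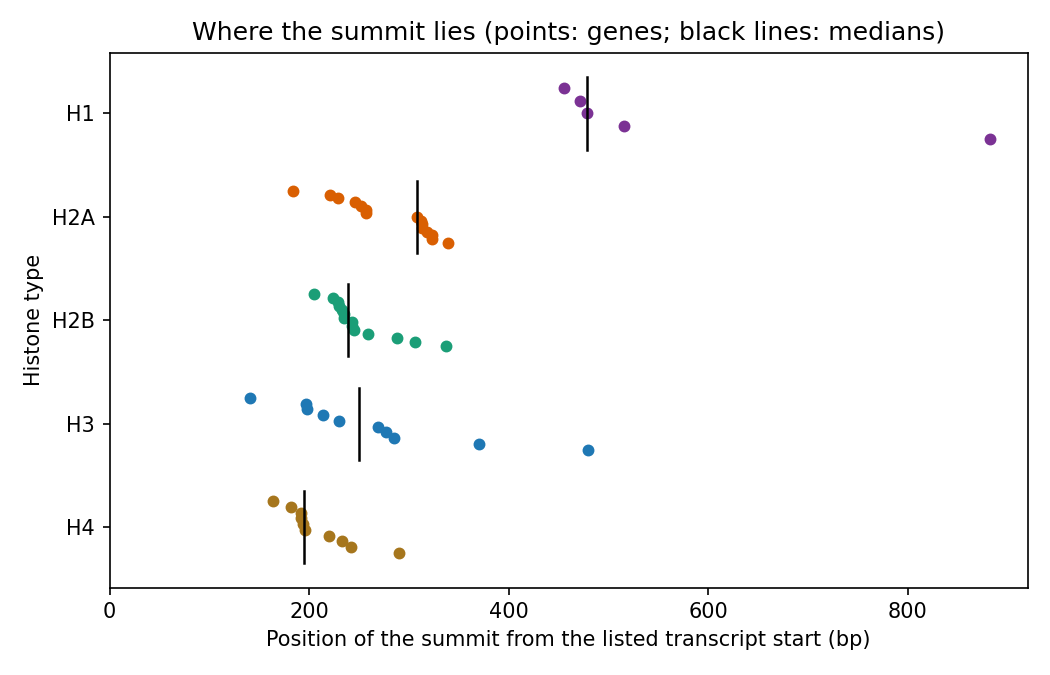
Position of the peak summit, in bp from the listed transcript start, for the 54 histone genes with a peak and a listed start; points are genes and black lines medians. H4 summits centre on 195 bp and those of H1 genes of the Hist1 cluster lie between 450 and 520 bp.

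The shares of the 2 clusters had overlapping intervals. In Hist1, 49 of 53 genes held a peak (92.5%, 95% interval 82.1 to 97.0%), and in Hist2, 8 of 10 (80.0%, 49.02 to 94.3%). Median fold enrichment was 5.58 in Hist1 (1.82 to 17.1) and 5.97 in Hist2 (3.03 to 32.7), and median background 11.4 and 9.19 fragments. The 3 H3 genes of Hist2 stood at 9.67, 13.6 and 32.7-fold, and the 9 of Hist1 from 3.47 to 17.1 with a median of 6.87, of which H3c1, H3c4 and H3c2 lay above the lowest of Hist2. The H2A genes of Hist2 ran from 3.65 to 4.96, within the Hist1 range of 3.40 to 11.9.

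Within Hist1, genes more than 100 kb apart form 4 blocks. From 21715711 to 21833475, 17 of 17 genes held a peak, with a median of 4.37-fold. From 22035122 to 22043658, 4 of 5 did, at 8.40 (7.18 to 11.9). From 23531044 to 23764412, 27 of 29 did, at 5.24. The pair H2bc1 and H2ac1, from 23933725 to 23934913, held 1 peak. In Hist2, H2ac21 and H2bc21 held no peak, and the peak of H2ac20 (chromosome 3, 96220583 to 96220853) lay 229 bp from the former and 219 bp from the latter.

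The blocks also held 8 peaks outside the members. One lay in the pseudogene H2ac14, at 14.5-fold (11.1 to 18.7) on 58 fragments, above every H2A member. The other 7 lay in no gene of the table, between 21813010 and 21820093 on chromosome 13, with folds of 2.87 to 6.77 (median 4.89).

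Genes with an older Hist name that the newer symbols leave out were described separately. H4bc24, formerly Hist1h2br, held a peak at 7.95-fold (6.32 to 9.87). In the Hist3 cluster on chromosome 11, H2aw held a peak at 2.60 (1.97 to 3.36), whose summit also lay in Trim17, and H2bu2 and the transcribed pseudogene H2bu1-ps held none. The transcribed pseudogene H2af-ps2 on chromosome 13, formerly Hist1h2al, held a peak at 11.2-fold (7.05 to 17.0) on 20 fragments. H4f16 on chromosome 6, formerly Hist4h4, held none.

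Histone genes outside the clusters mostly encode variants with roles of their own. Of 11 such genes, 8 held a peak (72.7%, 95% interval 43.4 to 90.3%), H1f0 included, against 30.7% of all protein-coding genes. H1f10, a linker histone, stood at 18.5-fold (13.9 to 24.3), H2ax, the variant phosphorylated at DNA breaks, at 13.4 (10.4 to 17.0), and H2aj at 7.96 (5.17 to 11.8). Cenpa, the H3 variant of centromeres, H2az2 and Macroh2a2 held none. The median of this list was 5.48-fold, beside 5.53 in the 58 genes above.

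Of 16 genes that act in histone gene transcription and in processing of histone mRNA 3′ ends, 3 held a peak (18.8%, 95% interval 6.59 to 43.0%), against 30.7% of all protein-coding genes. They were Upf1, an RNA helicase of mRNA decay, at 13.7-fold (10.3 to 18.0), the scaffold Sympk at 11.0 (7.70 to 15.2) and the cap-binding cofactor Srrt at 6.22 (4.17 to 8.95). Each value is that of the highest peak, of 7 in Upf1, 17 in Sympk and 6 in Srrt, whereas each histone gene above held at most 1. Slbp, Npat and Lsm11 were among the 13 with none.

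Of 14 histone chaperone genes, 8 held a peak (57.1%, 32.6 to 78.6%, against 30.7% of all protein-coding genes), led by Hira at 8.65-fold, the importin Ipo4 at 8.27 and Chaf1a at 6.82. Asf1a, Asf1b and Nasp held none. Of 22 genes of DNA replication and S phase, 12 held a peak (54.5%, 34.7 to 73.1%, against the same 30.7%). The licensing factor Cdt1 stood at 13.3-fold (8.79 to 19.4) at its highest peak. The helicase subunit Mcm4 stood at 8.09 (4.90 to 12.7) and the ribonucleotide reductase subunit Rrm2 at 7.87 (4.62 to 12.7). These intervals overlapped too. Pcna, Mcm6 and Gins1 held none. The shares of the chaperone and replication lists lie above 30.7% and below the 90.6% of the 64 histone genes. Counting only peaks with a fold at or above the median of all 21192 peaks (5.58) left 3 of the 14 and 4 of the 22, where 20.4% of all protein-coding genes were counted, and neither transcript abundance nor gene span was matched.

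For the histone genes the background was a whole multiple of 0.438 fragments in 57 of 58 cases, within 0.01 of a step, from 1 to 68 steps with a median of 25. With 1 step taken as 1 input fragment and no pseudocount, H3c14 stood on 4 steps, and its ratio became 50.8 with an interval of 19.2 to 191. That of H1f5 became 1.86 (1.18 to 2.89), and that of H3c1 21.7 (10.5 to 52.1). The median ratio of all genes with a peak, each at its highest peak, was 10.4 on this scale. The intervals of 2 histone genes, both H3, lay wholly above it, and those of 31 wholly below, all 5 H1 genes among them.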

How the data were processed

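Per the submitters' processing notes, the build was mm10 and the tools included HISAT2 2.2.1 and MACS3 3.0.0a7; filters were not given in the sources used here. The deposited list has 10 columns and no header: a score, the authors' fold enrichment (a ratio), −log10 p-value and −log10 q-value per peak, and the summit. The largest q-value was 0.0499, and strand was given for 0 peaks. Peaks of the 1 immunoprecipitation were joined to RefSeq GRCm38.p6 gene spans by summit, and promoter windows came from RefSeq too. Depth comes from each peak, with library totals not used here: the whole number of fragments that matched both fold (pseudocount 1) and Poisson p was found for 21192 of 21192 peaks, with a relative miss of at most 8.58e-06, and the method was tested on simulated data. Intervals (95%, exact Poisson for folds, Wilson for shares) cover counting error only, and PCR copies cannot be told from separate molecules. Every histone gene with a summit is named, with the 3 highest genes and up to 3 without a peak from each other list; cell type markers are given as counts, with the 1 without a peak named, and immune cell markers are not reported here. Members, lists and rules were chosen with earlier results of these data known. Python 3.11.15, pandas 2.3.3 and scipy 1.17.1 were used. Alternatives were stricter q and fold limits, 2 overlap rules, longer spans and summits in 1 gene.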

Additional observations from a re-analysis of the deposited data

How the results depend on the processing

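Of 82 values under alternatives, 66 were counted as close to the reported value. These include 10 H2B genes in place of 15 and 8 H3 genes in place of 12, under a fold enrichment at or above the list's median (5.58). That limit moved most of the other 16 values, by construction. It gave 28 histone genes (and 28 peaks) in place of 58, 24 in Hist1 and 4 in Hist2. It gave 26 with a span up to 1000 bp and 2 above, 0 H1, 6 H2A and 4 H4 genes, and a median fold of 7.94. Under it 20.4% of all protein-coding genes held a peak. It left 4 of 11 histone genes outside the clusters, 3 of 14 chaperone genes and 4 of 22 replication genes. A −log10 q of at least 10 left 3 of 7 H1 genes, 4 of 14 chaperone genes and 5 of 22 replication genes, against 17.6% of all protein-coding genes. The overlap rules, the span extended by 500 bp and the limit to 1 gene moved no count of histone genes by over 1.5 times. The ratio with no pseudocount, chosen after the data were seen, gave a median of 6.25. No paired analysis was possible because each group had 1 library. Depth can limit absent peaks, but it was not measured where no peak was called. H1f1, H1f6, H2ac1, H2ac21, H2bc21 and H4c9 have no value here.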
